A study of Homo sapiens with 15 samples.

Results

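The sirtuins are the family of NAD-dependent lysine deacylases, SIRT1 to SIRT7, and their transcript levels were measured on 15 Agilent whole human genome arrays. The members were found by symbol among the array's gene names. They comprised 7 of 30982 gene names, read by 10 of 41000 gene probes. The cells were MDA-MB231, a triple-negative breast cancer cell line, and each array set treated RNA in the Cy5 channel against control RNA in the Cy3 channel. In 5 arrays the treated cells were shCtBP2, with stable RNA interference of the corepressor CtBP2; in 5 the cells had been exposed to HIPP and in 5 to P4. HIPP (sodium 2-hydroxyimino-3-phenylpropanoate, an oxime) and P4 (sodium 2-hydrazone-3-phenylpropanoate, a hydrazone) are CtBP inhibitors designed from the CtBP substrate MTOB, and cells were collected 24 h after treatment. The labels call the control untreated on all arrays, whereas the study's text sets shCtBP2 against a scrambled control; the compound doses used on the arrays are not in the labels, and all cells belonged to 1 line. The 5 arrays of a treatment are labelled biological replicates.

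Sirtuins transfer an acyl group from a protein lysine to NAD, which is cleaved to nicotinamide in the reaction, so their activity is coupled to the NAD pool of the compartment they occupy. SIRT1, SIRT6 and SIRT7 act mainly in the nucleus on histones and transcription factors, SIRT2 mainly in the cytosol on tubulin, and SIRT3, SIRT4 and SIRT5 in mitochondria on metabolic enzymes. CtBP proteins bind NADH and NAD through a dehydrogenase fold and repress transcription, which places both families among proteins that read the redox state of the cell.

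SIRT1, SIRT2, SIRT4, SIRT6 and SIRT7 were each read by 1 probe, SIRT5 by 2 and SIRT3 by 3. Positions are those of the array annotation (NCBI35, hg17). The 2 SIRT5 probes lay 6617 bases apart on chromosome 6 and shared no run longer than 6 bases. They are shown because they gave different values under both compounds; each line holds the first 30 of the 60 bases of the probe, 5′ to 3′, with no letters capitalised.
SIRT5 A_23_P214812, annotated to NM_012241, chr6:13720307-13720366, plus strand: gaaacgtgaggtatctttgatgtgtatggt
SIRT5 A_23_P307955, annotated to NM_031244, chr6:13713629-13713689, plus strand: tggaataatgttctctgctacttttaacct

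The 3 SIRT3 probes also differed. The first is printed whole because its annotated span on the genome is 2173 bases for 60 bases of sequence, so it covers a splice junction; the other probes are given by their first 30 bases.
SIRT3 A_23_P139265, chr11:206700-208872, minus strand: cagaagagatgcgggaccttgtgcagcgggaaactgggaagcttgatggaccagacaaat
SIRT3 A_24_P85158, chr11:206148-206207, minus strand: gtggggctatttttaatgagagaaaatctg
SIRT3 A_24_P923684, chr11:205429-205488, minus strand: ggaattggtgacctaggaaaactgttgaat
The SIRT4 probe read the member with the highest mean ratio in shCtBP2 cells.
SIRT4 A_23_P99226, chr12:119213599-119213658, plus strand: acttgaatcttgctgctaaatgtaaatgcc

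Values are log2 ratios of treated over control signal, so 0 means no difference, and probes of a gene were averaged. Each treatment's mean was tested against 0 with limma across all genes with Benjamini-Hochberg adjustment, and genes in the lowest 11% of variability within a treatment were left out of that adjustment and are called not tested. "Differentially expressed" means an adjusted p below 0.05 together with a fold of at least 1.5 for shCtBP2, 2.5 for HIPP or 1.8 for P4. Because no array had the dyes exchanged, a ratio against 0 may hold a gene-specific dye effect, which cancels in a difference between treatments. Median log2 ratios over all genes tested were 0.04 in shCtBP2, 0.08 in HIPP and 0.11 in P4.

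The targeted gene, CTBP2, had log2 ratios of -0.36, -0.35, -0.59, -0.44 and -0.29 in shCtBP2 replicates 1 to 5, a mean of -0.41 ± 0.11 (SD, n = 5) with a limma adjusted p of 0.0595. CTBP2 was thus below control on 5 of 5 arrays but missed the threshold, which it passed in 7 of 13 alternatives (smallest adjusted p 0.0154, largest over all alternatives 0.312), while under HIPP it was higher at 0.57 ± 0.36 (adjusted p = 0.00256), a call lost with the scan day as a block (0.50, adjusted p = 0.125) and by the methods' t-test (0.0938). By probe, the shCtBP2 means were -0.39 for A_24_P103922 (limma adjusted p = 0.0171 over all probes) and -0.42 for A_23_P63897 (0.152). The study reported lower CtBP2 mRNA by real-time PCR and lower CtBP2 protein in shCtBP2 cells. VIM and EGFR, which mark this line, were well above background in the control channel on 15 of 15 arrays as was the epithelial EPCAM, and the epithelial cadherin CDH1 on 0 of 15; of the receptors that a triple-negative line lacks, PGR was on 0, ESR1 on 11 and ERBB2 on 15. Slide 1 held P4 replicates 1 to 4 and was scanned on a day of its own, slide 2 HIPP replicates 1 to 3 with P4 replicate 5, slide 3 shCtBP2 replicates 1 and 2 with HIPP replicates 4 and 5, and slide 4 shCtBP2 replicates 3 to 5. P4 replicates 1 and 3 correlated at r = 0.0115 across genes, against 0.300 for the next lowest pair within a treatment.

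No sirtuin reached the fold thresholds under either compound, and 1 did in shCtBP2 cells. In shCtBP2 cells, 6 of the 7 sirtuins were tested: 1 was higher (SIRT4) where 6.58% of all genes tested were, 0 were lower against 6.92%, and 1 was differentially expressed against 6.55%. Under HIPP, 5 were tested, of which 2 were higher (SIRT6 and SIRT7; background 24.9%), 1 was lower (SIRT5; background 23.9%) and 0 were differentially expressed (background 7.04%). Under P4, 4 were tested, of which 1 was higher (SIRT6; background 17%), 0 were lower (background 14.8%) and 0 were differentially expressed (background 8.46%). The median over the 7 sirtuins was -0.03 in shCtBP2, 0.04 in HIPP and -0.04 in P4. At an unadjusted limma p under 0.05, 1 of 7 sirtuins was higher and 2 lower in shCtBP2 (13.4% and 12.8% of all genes), 2 higher and 1 lower in HIPP (28.9% and 24.6%), and 2 higher and 3 lower in P4 (24.1% and 18.9%), and 0 passed the fold threshold in HIPP or P4. The methods' t-test put 1 higher and 1 lower in shCtBP2, 1 and 1 in HIPP, and 0 and 1 in P4 at that unadjusted level.

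**Figure D1:**
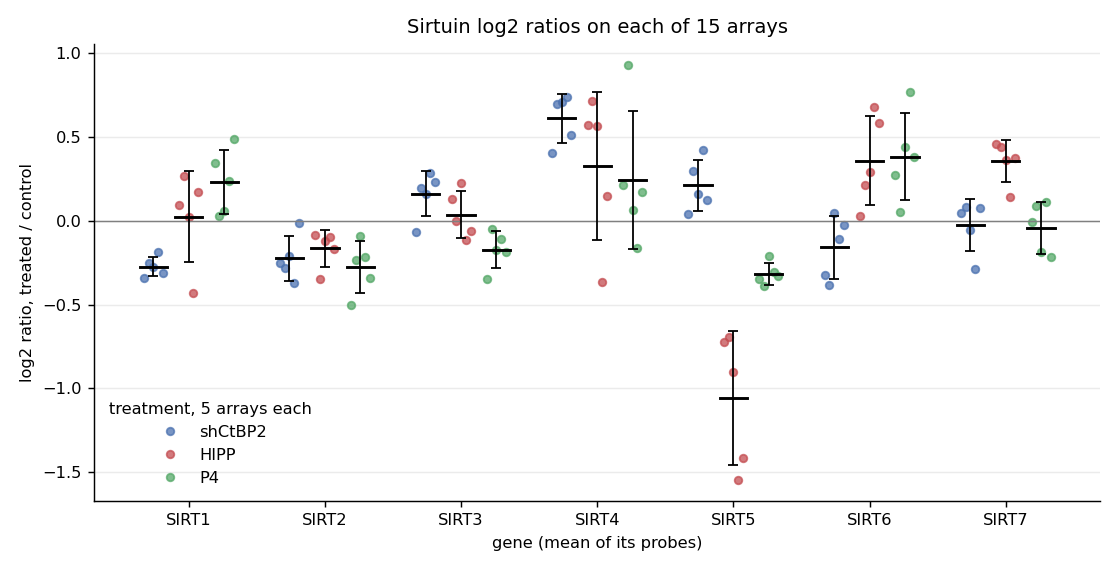
Log2 ratio of treated over control signal for SIRT1 to SIRT7 on each of the 15 arrays (points), with the mean and SD of the 5 arrays of each treatment. SIRT4 sat above 0 on all shCtBP2 arrays, from 0.40 to 0.74, and SIRT5 below 0 on all HIPP arrays, from -1.55 to -0.69. The SIRT5 values average probes that disagreed, 1 of them not well above background in the treated channel on any HIPP array.

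Among the nuclear sirtuins, SIRT1, a deacetylase of histones and of transcription factors such as the FOXO proteins, did not pass the test in any treatment. Its log2 ratios in shCtBP2 cells were -0.34, -0.25, -0.27, -0.19 and -0.31, a mean of -0.27 ± 0.059 (adjusted p = 0.0838). The shCtBP2 arrays lay below 0 in a narrow band. Under HIPP the values were 0.09, 0.27, 0.02, -0.43 and 0.17, a mean of 0.024 ± 0.27 (adjusted p = 0.857), with replicate 4 below 0 and the rest above. Under P4 they were 0.34, 0.03, 0.06, 0.24 and 0.49, a mean of 0.23 ± 0.19 (adjusted p = 0.0864). All P4 values were above 0 and none overlapped the shCtBP2 values. Fitted on the shCtBP2 arrays alone, the SIRT1 decrease passed the test (adjusted p = 0.0303).

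SIRT6, a chromatin-bound deacylase that acts on acetylated histone H3 and also transfers ADP-ribose, was higher under both compounds. Its log2 ratios under HIPP were 0.03, 0.21, 0.29, 0.68 and 0.58, a mean of 0.36 ± 0.27 (adjusted p = 0.0174), or 128% of control. Under P4 they were 0.27, 0.06, 0.44, 0.77 and 0.38, a mean of 0.38 ± 0.26 (adjusted p = 0.0195), or 131% of control. SIRT6 was above control on 5 of 5 arrays of each compound, by amounts that varied several-fold between arrays. In shCtBP2 cells the values were -0.32, -0.38, 0.05, -0.11 and -0.03, a mean of -0.16 ± 0.19 (adjusted p = 0.403). The HIPP call was lost without HIPP replicate 4 (log2 0.28, adjusted p = 0.078) or 5 (0.31, 0.074), and the P4 call without P4 replicate 4 (0.29, 0.098) or 5 (0.39, 0.052). Both were also lost with background-subtracted signals (0.24 and 0.30), with the scan day as a block, with each compound's arrays fitted alone and by the methods' t-test.

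SIRT7, a nucleolar sirtuin linked to ribosomal RNA transcription, was higher under HIPP, with log2 ratios of 0.46, 0.44, 0.36, 0.14 and 0.38 and a mean of 0.36 ± 0.13 (adjusted p = 0.00274), 128% of control. All 5 HIPP arrays were above the highest shCtBP2 and P4 arrays. In shCtBP2 cells the values were 0.05, 0.08, -0.05, -0.29 and 0.08, a mean of -0.025 ± 0.16 (adjusted p = 0.872). In P4 they were -0.01, 0.09, -0.19, 0.11 and -0.22, a mean of -0.042 ± 0.15, and SIRT7 was not tested there. Of the alternatives run, the methods' t-test alone lost the HIPP call (adjusted p = 0.178).

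SIRT2, the cytosolic member that deacetylates alpha-tubulin, was below control on all 15 arrays by a small amount and did not pass the test where it was tested. In shCtBP2 cells its log2 ratios were -0.25, -0.28, -0.21, -0.37 and -0.01, a mean of -0.22 ± 0.13 (adjusted p = 0.0812). Under HIPP they were -0.08, -0.35, -0.12, -0.10 and -0.17, a mean of -0.16 ± 0.11, and under P4 -0.50, -0.23, -0.09, -0.22 and -0.34, a mean of -0.28 ± 0.15. The 3 treatments overlapped throughout. SIRT2 was not tested in HIPP or P4; without the variability filter the P4 decrease passed (adjusted p = 0.0188) and the HIPP value did not. The shCtBP2 decrease passed with the deposited processed ratios (adjusted p = 0.0287).

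Of the mitochondrial members, SIRT4, a lipoamidase and ADP-ribosyltransferase known for restraining glutamate dehydrogenase and pyruvate dehydrogenase, was the sirtuin called in shCtBP2 cells. Its log2 ratios there were 0.40, 0.70, 0.71, 0.74 and 0.51, a mean of 0.61 ± 0.15 (adjusted p = 0.0182), or 153% of control. The treated signals were 61.5, 72.4, 61.1, 86.9 and 71.1 against control signals of 46.5, 44.7, 37.4, 51.9 and 49.8 in the same order, and both channels were well above background on each array. Under HIPP the ratios were 0.57, 0.71, 0.57, -0.36 and 0.15, a mean of 0.33 ± 0.44 (adjusted p = 0.0951), with replicate 4 alone below 0. Under P4 they were 0.22, 0.93, 0.06, -0.16 and 0.17, a mean of 0.24 ± 0.41 (adjusted p = 0.237). The shCtBP2 arrays were the least scattered of the 3 groups, and the ranges of all groups overlapped. The shCtBP2 mean lay just above the 1.5-fold threshold of 0.58, and the call was lost without replicate 2 (log2 0.59, adjusted p = 0.062), 3 (0.59, 0.057) or 4 (0.58, 0.068), with normexp and loess (0.20, 0.058) and with the scan day as a block (0.66, 0.241). The HIPP mean passed without HIPP replicate 4 (0.50, adjusted p = 0.0134) and with background subtraction (0.43, 0.0327), and the P4 mean was -0.14 with the slide as a fixed block.

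**Figure D2:**
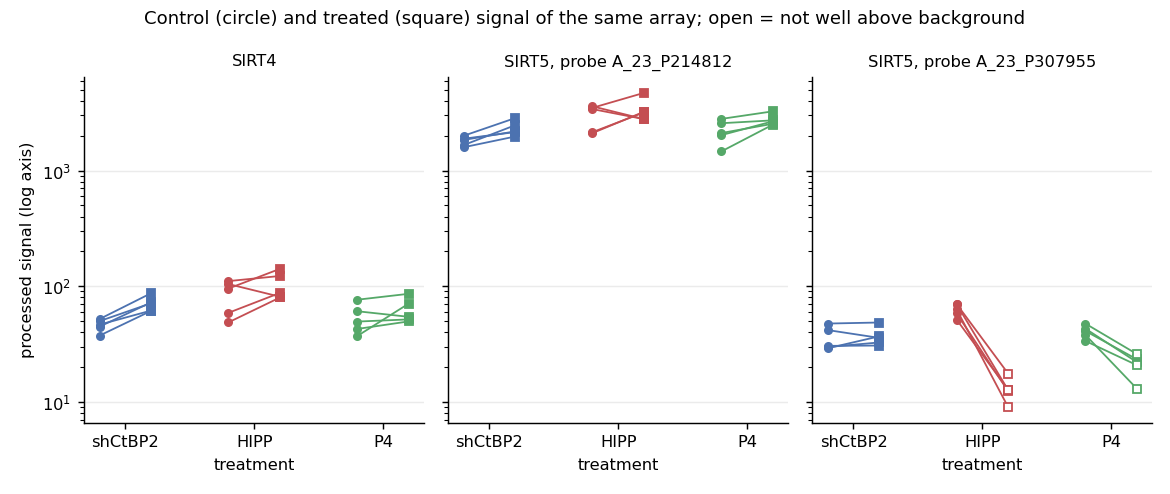
Treated and control signals, in background-corrected and dye-normalised fluorescence units on a log axis, for the SIRT4 probe and the 2 SIRT5 probes on each array, with lines joining the channels of an array and open symbols for signals not well above background. For SIRT5 probe A_23_P307955 under HIPP, treated signals of 9.001 to 17.6 lay below control signals of 51.5 to 70.1, and for SIRT4 in shCtBP2 cells treated signals exceeded control signals on 5 of 5 arrays.

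SIRT5, which removes succinyl, malonyl and glutaryl groups from mitochondrial enzymes, was lower under HIPP when its probes were averaged. The gene's log2 ratios there were -0.72, -0.69, -0.90, -1.55 and -1.42, a mean of -1.06 ± 0.40 (adjusted p = 3.99e-06). This size is not firm, since the treated signal of 1 of the averaged probes was not well above background on any HIPP array. Under P4 they were -0.35, -0.39, -0.21, -0.31 and -0.33, a mean of -0.32 ± 0.067 (adjusted p = 0.0525). In shCtBP2 cells they were 0.04, 0.30, 0.16, 0.43 and 0.13, a mean of 0.21 ± 0.15, which was not tested. In the average the 3 groups did not overlap, with HIPP lowest and shCtBP2 highest. That separation rests on a probe well above background in the treated channel on 0 of 5 HIPP and 2 of 5 P4 arrays, so it is not firm. This average joined probes that disagreed, and taking only the brightest probe turned the direction under both compounds (0.19 under HIPP and 0.35 under P4). With normexp and loess the HIPP value was -0.04 (adjusted p = 0.685) and the P4 value 0.08.

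The decrease was on probe A_23_P307955. Its log2 ratios under HIPP were -2.02, -1.997, -2.24, -2.81 and -2.47, a measured mean of -2.30 ± 0.34 (adjusted p = 1.06e-08 over all probes). Under P4 they were -0.96, -1.55, -0.82, -0.70 and -0.88, a measured mean of -0.98 ± 0.33 (adjusted p = 0.000109). In shCtBP2 cells they were -0.22, 0.03, 0.13, 0.34 and 0.01, a mean of 0.06 ± 0.21 (adjusted p = 0.820). The measured values of the groups did not overlap, and those of HIPP lay below every P4 value. The order of the compounds is uncertain, since treated signals were well above background on 0 of 5 HIPP and 2 of 5 P4 arrays. Treated signals under HIPP were 12.7, 17.6, 12.4, 9.001 and 12.6, against 51.5, 70.1, 58.2, 63.0 and 69.9 in the control channel. The treated channel was not well above background on any HIPP array while the control channel was on 5 of 5, so the size of the HIPP fold is uncertain. Average intensities of the arrays were set on a common scale by quantile normalization, which left the ratio of the channels unchanged. Dim treated signals were then raised to the lowest signal of any probe called well above background on the array. By that rule control was 4.55-fold higher (log2 means 5.19 in control and 3.01 in treated cells, 2.89 as measured). This is not a lower bound for this probe, since its signals up to 25.8 were not called well above background under P4. The value is also open to dye bias. Under P4 only 2 of 5 treated signals were well above background, at 22.0, 13.0, 23.3, 20.7 and 25.8 against 42.9, 37.8, 41.0, 33.6 and 47.4, so the size of the P4 decrease is uncertain too. The decrease passed the test under both compounds in every alternative run, though with normexp and loess it shrank to -0.25 in HIPP and -0.18 in P4 (largest adjusted p over the alternatives 0.00247 and 0.0274).

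Probe A_23_P214812 gave no such decrease. Its log2 ratios were 0.31, 0.57, 0.19, 0.51 and 0.25 in shCtBP2 cells (mean 0.37 ± 0.17, adjusted p = 0.113), and 0.27, 0.77, 0.40, 0.08 and 0.22 under P4 (mean 0.35 ± 0.26, adjusted p = 0.0816). The shCtBP2 value passed with the slide as a fixed block (0.88, adjusted p = 0.0181) and with the shCtBP2 arrays alone (0.0299), and the P4 value passed with normexp and loess (0.34, 0.0469) and the replicate block (0.0398) but was -0.21 (0.517) with the slide as a fixed block. Under HIPP they were 0.57, 0.61, 0.43, -0.29 and -0.37, a mean of 0.19 ± 0.48, which was not tested. On each of the 15 arrays A_23_P307955 had the lower ratio of the pair. In shCtBP2 cells, where both channels were well above background, its ratio minus that of A_23_P214812 was -0.31 ± 0.22, from -0.54 to -0.06. The sizes under the compounds rest on treated signals at or near background and are not given. Which SIRT5 transcripts carry each probe was not tested.

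**Figure D3:**
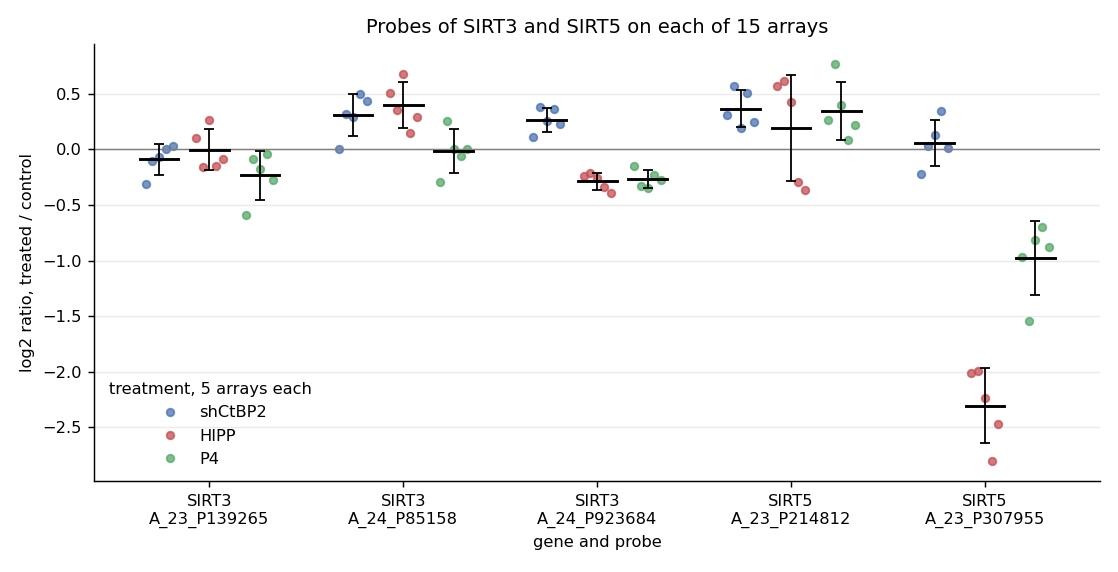
Log2 ratios of the 2 SIRT5 and 3 SIRT3 probes on each array, with arrays grouped by treatment. Probe A_23_P307955 ran from -2.81 to -1.997 under HIPP whereas A_23_P214812 ran from -0.37 to 0.61 on the same arrays.

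SIRT3, the main mitochondrial deacetylase, had gene-level log2 ratios from -0.07 to 0.29 in shCtBP2 cells, -0.11 to 0.23 under HIPP and -0.35 to -0.05 under P4. The means were 0.16 ± 0.14 (adjusted p = 0.197), 0.036 ± 0.14 and -0.17 ± 0.11, and the compounds were not tested because of the variability filter. Its probes again separated. Over all 10 sirtuin probes, 9 were tested in shCtBP2 cells and 2 were higher, 0 lower and 1 differentially expressed (backgrounds over all probes 6.77%, 7.38% and 6.91%). Under HIPP 6 were tested, with 2 higher, 2 lower and 1 differentially expressed (26.3%, 25.2% and 8.45%). Under P4 6 were tested, with 1 higher, 2 lower and 1 differentially expressed (17.4%, 15.8% and 9.51%).

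Probe A_24_P923684 of SIRT3 had log2 ratios of 0.11, 0.38, 0.26, 0.36 and 0.23 in shCtBP2 cells, a mean of 0.27 ± 0.11 (adjusted p = 0.0227). It had -0.23, -0.21, -0.26, -0.34 and -0.39 under HIPP (mean -0.29 ± 0.077, adjusted p = 0.00379). Under P4 it had -0.15, -0.33, -0.34, -0.23 and -0.28 (mean -0.27 ± 0.078, adjusted p = 0.0111). Both compounds lay below 0 and shCtBP2 above 0 on every array. The ratios of probe A_24_P85158 were 0.01, 0.32, 0.29, 0.50 and 0.43 in shCtBP2 cells (mean 0.31 ± 0.19, adjusted p = 0.0538) and 0.51, 0.36, 0.68, 0.15 and 0.29 under HIPP (mean 0.40 ± 0.20). Under P4 they ranged from -0.30 to 0.26 (mean -0.02 ± 0.20). The HIPP value was not tested, and passed without the variability filter (adjusted p = 0.00445). The junction probe A_23_P139265 ranged from -0.31 to 0.03, from -0.16 to 0.26 and from -0.59 to -0.04 in the 3 treatments and was not tested in any. On the HIPP arrays A_24_P923684 was lower than A_24_P85158 by a mean of -0.69, with a range of -0.94 to -0.49. The calls of A_24_P923684 were not firm: the shCtBP2 call was lost without replicate 2, 3, 4 or 5 (adjusted p 0.0587 to 0.0948), and the scan day as a block ended all 3 calls.

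The design also allowed the treatments to be compared with each other. Over all genes tested, 27.4% differed between HIPP and shCtBP2, 12.9% between P4 and shCtBP2 and 11.1% between HIPP and P4. Of the sirtuins, SIRT5, SIRT6 and SIRT7 differed between HIPP and shCtBP2, with log2 differences of -1.27 (adjusted p = 5.39e-05), 0.52 (0.0269) and 0.38 (0.0267). SIRT1, SIRT5 and SIRT6 differed between P4 and shCtBP2, by 0.50 (adjusted p = 0.0293), -0.53 (0.0499) and 0.54 (0.0403). SIRT3 did not pass there (-0.34, adjusted p = 0.0654) but did in 5 of 10 alternatives, down to an adjusted p of 0.0198 with normexp and loess. SIRT5 and SIRT7 differed between HIPP and P4, by -0.74 (adjusted p = 0.009995) and 0.40 (0.0441). The SIRT5 differences average 2 probes that disagreed, 1 of them with treated signals at or near background under the compounds, so their sizes are not firm. With the brightest probe they were -0.17 for HIPP minus shCtBP2, -0.02 for P4 minus shCtBP2 and -0.16 for HIPP minus P4, and none passed. SIRT6 did not differ detectably between the compounds, at -0.02 with a 95% interval of -0.37 to 0.32. Nor did SIRT1, SIRT2, SIRT3 or SIRT4 pass between the compounds, and their 95% intervals were -0.51 to 0.09, -0.13 to 0.36, -0.03 to 0.45 and -0.39 to 0.56; SIRT2 and SIRT3 were left out of the adjustment there. The doses were not known to be matched, so the comparison of the compounds is one of the arrays as run.

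At the probe level, 29.7%, 13.6% and 13.9% of all probes tested differed in the same 3 comparisons. Of 9 sirtuin probes tested, 2 were higher and 2 lower in HIPP than in shCtBP2, and likewise in P4. Of the 7 tested between the compounds, 1 was higher in HIPP and 1 lower. SIRT5 probe A_23_P307955 was lower than in shCtBP2 cells under HIPP (measured log2 difference -2.36, adjusted p = 1.09e-06) and P4 (-1.04, 0.00264), and lower under HIPP than P4 (-1.33, 0.000688). In all, 0 of 5 HIPP and 2 of 5 P4 treated signals cleared background, so these measured values fix neither the sizes nor the order of the compounds. SIRT3 probe A_24_P923684 was lower than in shCtBP2 cells by -0.56 under HIPP (adjusted p = 0.000787) and by -0.53 under P4 (0.00325), with -0.02 between the compounds (adjusted p = 0.951). With normexp and loess the A_23_P307955 differences of P4 from shCtBP2 and of HIPP from P4 were -0.23 (adjusted p = 0.0735) and -0.07 (0.713), and with the slide as a fixed block -1.33 (0.0857) and -1.21 (0.122). The SIRT3 probe's difference of P4 from shCtBP2 was -0.65 (adjusted p = 0.143) with the slide and -0.54 (0.193) with the scan day as a block.

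**Figure D4:**
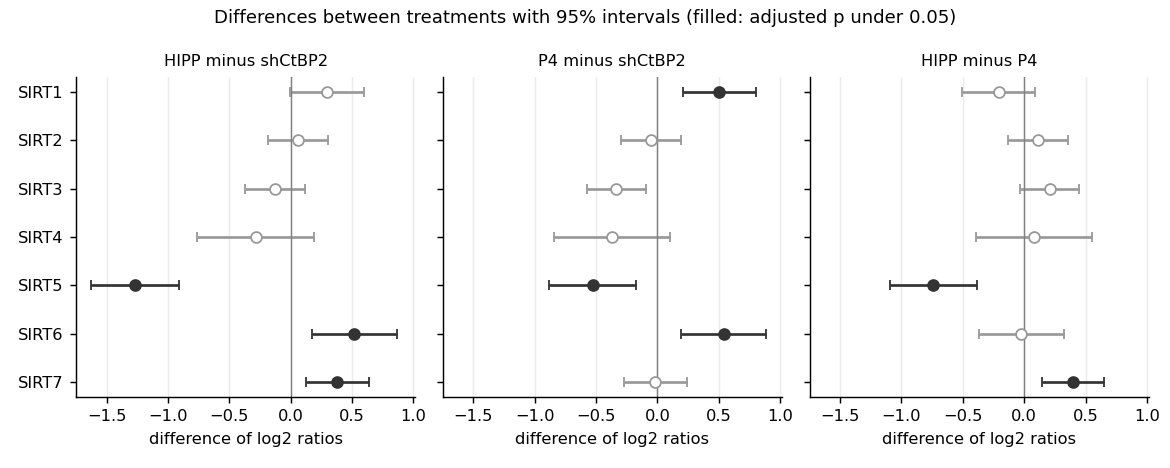
Differences in mean log2 ratio between treatments for the 7 sirtuins, with 95% intervals. SIRT5 lay at -1.27 for HIPP minus shCtBP2 and -0.74 for HIPP minus P4, while SIRT6 lay at 0.52 and 0.54 for the compounds against shCtBP2 and at -0.02 between them. The SIRT5 values average in a probe not well above background in the treated channel on any HIPP array.

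Several of these differences rested on single arrays. Leaving out any 1 of the 10 arrays ended the SIRT5 call between P4 and shCtBP2 (adjusted p 0.0621 to 0.117), as did the replicate number as a block (0.0589), and the difference was -0.02 (0.966) with the brightest probe and -0.11 (0.559) with normexp and loess. The SIRT1 call between P4 and shCtBP2 was lost without shCtBP2 replicate 1, 2, 3 or 5 or P4 replicate 1, 4 or 5 (adjusted p 0.052 to 0.0833). The SIRT6 call between HIPP and shCtBP2 was lost without shCtBP2 replicate 1 or 2 or HIPP replicate 4 or 5 (0.0632 to 0.0708), and that between P4 and shCtBP2 without shCtBP2 replicate 1, 2, 4 or 5 or P4 replicate 3, 4 or 5 (0.0605 to 0.105). Both SIRT6 calls were also lost with normexp and loess (0.35, adjusted p = 0.0727, and 0.39, 0.0650) and with background subtraction (0.43, 0.0659, and 0.48, 0.0666). The scan day as a block ended all calls of P4 against shCtBP2 and against HIPP, and background subtraction that of SIRT7 between HIPP and P4 (0.32, 0.0981). The SIRT7 call between HIPP and shCtBP2 was lost without shCtBP2 replicate 3 or 4 or HIPP replicate 1, 2 or 5 (0.0519 to 0.076), and that between HIPP and P4 without HIPP replicate 1, 2, 3 or 5 or P4 replicate 1, 3 or 5 (0.0522 to 0.112). SIRT5 kept its calls between HIPP and shCtBP2 and between HIPP and P4 in each such fit, but its differences were -0.17 (adjusted p = 0.572) and -0.16 (0.738) with the brightest probe and -0.23 (0.132) and -0.12 (0.577) with normexp and loess. With the slide as a fixed block, no sirtuin differed between P4 and shCtBP2 or between HIPP and P4 (SIRT5 -0.44, adjusted p = 0.403, for the latter), and SIRT7 did not differ between HIPP and shCtBP2 (0.19, adjusted p = 0.460).

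Within slides, few arrays were left. On slide 2, the HIPP minus P4 difference was -0.44 for SIRT5, 0.64 for SIRT7, -0.20 for SIRT6 and -1.21 for probe A_23_P307955. On slide 3, the HIPP minus shCtBP2 difference was -1.65 for SIRT5, 0.99 for SIRT6, 0.19 for SIRT7 and -2.54 for probe A_23_P307955. The signs of the differences called across all arrays were the same within these slides. Slide 2 held 1 P4 array. No slide held both P4 and shCtBP2 arrays, so that comparison had no within-slide value; with the slide as a fixed block, which links them through the HIPP arrays, P4 minus shCtBP2 was -1.21 for SIRT5 (adjusted p = 0.0502), 1.19 for SIRT6 (0.0753) and 0.53 for SIRT1 (0.308).

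The genes that supply and use NAD were then described from lists, whose counts are read against the shares of all genes tested: 6.58% higher and 6.92% lower in shCtBP2, 24.9% and 23.9% in HIPP, and 17% and 14.8% in P4. Of 15 NAD synthesis genes, 14 were tested in each treatment; 2 were higher and 1 lower in shCtBP2, 2 and 4 in HIPP, and 4 and 2 in P4, with list medians of 0.01, -0.02 and 0.18. NAMPT, which makes nicotinamide mononucleotide from the nicotinamide that sirtuins release, had ratios of 0.36, 0.47, 0.35, 0.63 and 0.51 in shCtBP2 cells (mean 0.46 ± 0.12, adjusted p = 0.0689). It was higher under P4, at -0.11, 0.97, 0.89, 0.22 and 0.43 (mean 0.48 ± 0.45, adjusted p = 0.0328), and at 0.01 ± 0.43 under HIPP (adjusted p = 0.963). NMNAT3, the mitochondrial NAD-forming adenylyltransferase, fell by 1.82 ± 0.19 on the log2 scale under HIPP (adjusted p = 1.98e-08), to 28.3% of control, and by 0.51 with normexp and loess, where it still passed. NMNAT3 fell by 0.47 under P4 (adjusted p = 0.00612) and was higher by 0.52 in shCtBP2 cells (adjusted p = 0.00728). The nicotinamide riboside kinase NMRK1 was higher in shCtBP2 cells (0.60, adjusted p = 0.0109) and under P4 (0.69, adjusted p = 0.00182), and NAPRT, which starts synthesis from nicotinic acid, was lower in shCtBP2 cells (-0.28, adjusted p = 0.0494) and higher under HIPP (0.65, adjusted p = 2.60e-05). TDO2, which opens the tryptophan route, was higher under P4 (1.05 ± 0.82, adjusted p = 0.00894). The second HIPP gene that was higher, NMRK2, is named after its values were seen and was not well above background in either channel on any HIPP array.

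Of the 3 NAD kinase and nicotinamide methylation genes, 1 of 2 tested was higher under HIPP and 1 of 2 under P4, while in shCtBP2 cells none of the 3 tested passed by limma at the adjusted threshold and 1 (NADK, -0.20) had an unadjusted p under 0.05. NNMT, which methylates nicotinamide, was higher by 0.95 under HIPP (adjusted p = 0.00166) and by 0.98 under P4 (adjusted p = 0.00285), where 3 and 2 of 5 control signals were well above background, so these sizes are uncertain. Of 9 other NAD-consuming enzymes, 2 of 8 tested were lower in shCtBP2 cells, 1 of 7 was higher and 4 lower under HIPP, and 1 of 7 higher and 2 lower under P4 (all genes: 6.92% lower; 24.9% and 23.9%; 17% and 14.8%). The tankyrase TNKS2, an ADP-ribosyltransferase, was differentially expressed in all 3 treatments: -0.60 (adjusted p = 0.0297), -1.70 (1.45e-06) and -1.62 (1.16e-05). Its paralog TNKS was higher at 0.62 under HIPP and 0.38 under P4, but its 3 probes ran from -1.40 to 1.68 and from -0.67 to 1.11.

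Of 14 SIRT1 regulators and substrates, 1 of 13 tested was higher in shCtBP2 cells (FOXO1, 0.29), 4 of 10 were higher and 3 lower under HIPP, and 3 of 13 were higher and 3 lower under P4 (all genes: 6.58% higher; 24.9% and 23.9%; 17% and 14.8%). FOXO3 was higher under HIPP (0.72), and CCAR2, an inhibitor of SIRT1, under P4 (0.72, adjusted p = 0.0134). HIC1, a repressor of SIRT1 that recruits CtBP, was not well above background in the treated channel on any of the 15 arrays, so no fold is given.

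Of 14 mitochondrial sirtuin substrates, 1 of 9 tested was lower in shCtBP2 cells, 2 of 14 were higher and 8 lower under HIPP, and 4 of 13 were higher and 6 lower under P4 (all genes: 6.92% lower; 24.9% and 23.9%; 17% and 14.8%). The list medians were 0.04, -0.48 and -0.51, against 0.04, 0.08 and 0.11 over all genes. GLUD1, the glutamate dehydrogenase that SIRT4 modifies, was higher under P4 (0.42 ± 0.34, adjusted p = 0.0255, above control on 4 of 5 arrays) and did not pass under HIPP (0.20 ± 0.29, adjusted p = 0.210) or in shCtBP2 cells (0.07 ± 0.22, adjusted p = 0.773). SHMT2, a mitochondrial serine hydroxymethyltransferase, was lower in shCtBP2 cells (-0.34, adjusted p = 0.0240). Under HIPP the adenine nucleotide translocase SLC25A5 was lower (-1.05, adjusted p = 0.000289) and the pyruvate dehydrogenase subunit PDHA1 higher (0.68, adjusted p = 2.22e-05). Under P4 the malonyl-CoA decarboxylase MLYCD was lower (-0.91, adjusted p = 0.0136).

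The 11 zinc-dependent histone deacetylases, which use no NAD, served as a comparison family. Of 9 tested in each treatment, 2 were lower in shCtBP2 cells, 2 higher and 4 lower under HIPP, and 2 higher and 3 lower under P4 (all genes: 6.92% lower; 24.9% and 23.9%; 17% and 14.8%), with medians of -0.06, -0.06 and -0.12. HDAC2 was lower in shCtBP2 cells (-0.39, adjusted p = 0.0104), HDAC5 higher under HIPP (1.16, adjusted p = 2.32e-07) and HDAC4 higher under P4 (0.46, adjusted p = 0.000765). HDAC8 was lower under HIPP (-1.14, adjusted p = 2.50e-07) and P4 (-0.67, adjusted p = 0.000147), with HIPP probe means of -2.22 to -0.06.

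Some calls on these lists rested on single arrays, probes or settings. TDO2 under P4 was at 0.37 (adjusted p = 0.640) with the slide as a fixed block and was also lost with the scan day (0.0530), the P4 arrays alone (0.0568) and the methods' t-test (0.0957). NNMT ranged down to 0.16 under HIPP and 0.17 under P4 over the alternatives, and its P4 call was lost with the slide (0.78, adjusted p = 0.255) and by the methods' t-test (0.114). With the slide as a fixed block NAMPT (0.11, adjusted p = 0.824), NMNAT3 (-0.43), TNKS (0.07) and HDAC4 (0.30) were lost under P4 and NMRK1 (0.65), TNKS2 (-0.44), FOXO1 (0.38), SHMT2 (-0.39) and NAPRT (-0.38) in shCtBP2 cells. Normexp and loess ended NMNAT3 (-0.21, adjusted p = 0.120), TNKS (0.17, 0.0539) and CCAR2 (0.60, 0.0526) under P4. The same setting ended TNKS2 (-0.33, 0.163) and NAPRT (-0.20, 0.0859) in shCtBP2 cells. TNKS was also lost with the P4 arrays alone (0.0672). NAMPT under P4 was lost in 7 of 13 alternatives and without P4 replicate 2 (0.36, adjusted p = 0.117), 3 (0.38, 0.120) or 5 (0.49, 0.0705), and GLUD1 without P4 replicate 3 (0.40, 0.0602), 4 (0.37, 0.0889) or 5 (0.34, 0.107), with the P4 arrays alone (0.104) and by the methods' t-test (0.304). CCAR2 was lost without P4 replicate 4 (0.57) or 5 (0.65), and MLYCD without 4 (-0.83) or 5 (-0.77). By the methods' t-test NMNAT3 (adjusted p = 0.170), TNKS (0.258), CCAR2 (0.220), MLYCD (0.0605), HDAC4 (0.135) and HDAC8 (0.174) were lost under P4. So were NMRK1 (0.136), TNKS2 (0.150) and FOXO1 (0.0660) in shCtBP2 cells. With the scan day as a block TNKS (0.0796) was lost under P4 and SLC25A5 (0.0537) under HIPP. In shCtBP2 cells that block ended HDAC2 (0.0543), NMRK1 (0.282), NAPRT (0.385), TNKS2 (0.241), FOXO1 (0.255) and SHMT2 (0.210). In shCtBP2 cells NMRK1 was lost without replicate 2 (0.53) or 4 (0.49), FOXO1 without 2 (0.27) or 4 (0.27), TNKS2 without 1 (-0.62), 2 (-0.54), 3 (-0.65) or 5 (-0.49), SHMT2 without 1 (-0.31), 2 (-0.32), 3 (-0.36) or 4 (-0.35), and NAPRT without any 1 of the 5 (-0.31 to -0.24). With the brightest probe HDAC8 was at -0.06 under HIPP and -0.15 under P4, HDAC4 at 0.13 under P4 and MLYCD at -0.50, and none of these passed. Nor did NAPRT (-0.09, adjusted p = 0.600) and SHMT2 (-0.25, 0.121) in shCtBP2 cells with that setting.

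**Figure D5:**
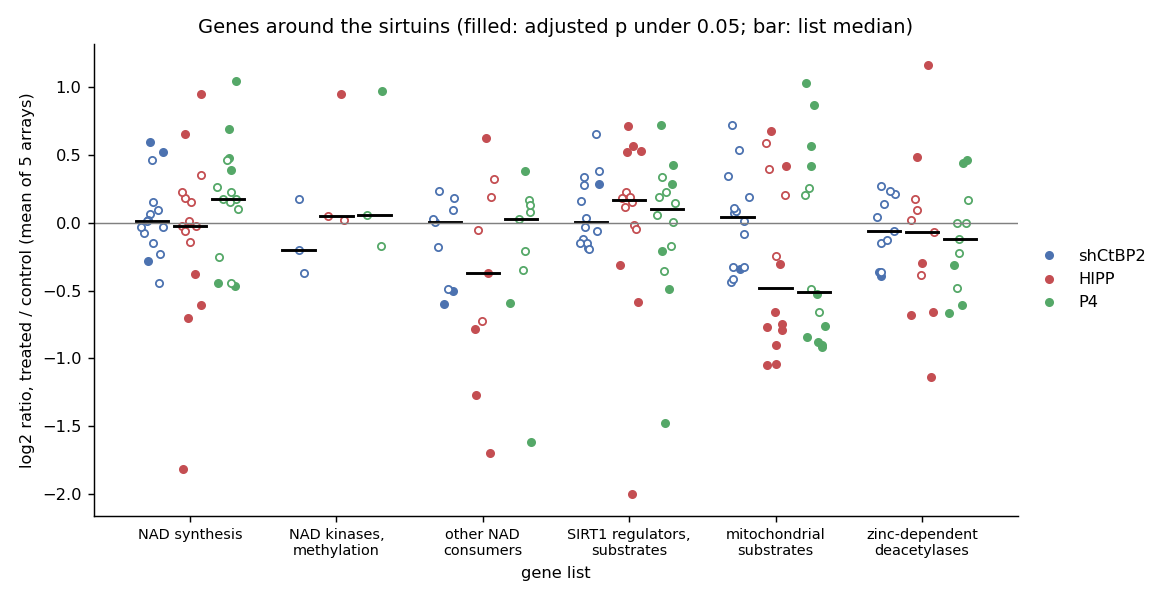
Mean log2 ratio of each gene in the 6 lists in the 3 treatments, whatever its signal over background, with filled points for an adjusted p under 0.05 and bars for list medians. The medians of the mitochondrial substrates were 0.04 in shCtBP2, -0.48 in HIPP and -0.51 in P4.

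Among 11991 genes well above background on all arrays, the closest profiles over the 15 arrays were described by the root mean square difference of log2 ratios. SIRT1 lay closest to MKRN2 (0.128) and NR3C1 (0.146), SIRT6 to FXYD5 (0.108) and FIZ1 (0.109), and SIRT7 to EDC3 (0.0881) and ARRDC1-AS1 (0.1102). SIRT2 lay closest to TTF1 (0.0842) and SIRT3 to VPS33B (0.0924) and MAPK13 (0.104). SIRT4 had CNIH3 (0.160) and SLC25A14 (0.199), and SIRT5 had C9orf40 (0.167) and CGGBP1 (0.193), so these 2 members had the most distant nearest genes. The SIRT5 profile averaged 2 probes that disagreed, 1 of them not well above background in the treated channel on any HIPP array. Its nearest genes and their distances are therefore not firm.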

How the data were processed

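RNA from MDA-MB231 cells (500 ng, T7 amplification) had been labelled and hybridised by the authors to 2-colour Agilent arrays, with treated RNA in Cy5 and control in Cy3 and no dye exchange. The deposited scanner files hold red and green processed signal intensities, background-corrected and dye-normalised by Agilent Feature Extraction 9.5.3.1. The deposited series table holds log10 ratios of the same arrays, used as an alternative (as log2). All value columns were mapped to samples, so 0 were left unused. Control spots and outlier flags were left out, and no spot was saturated.

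The log2 ratio of the processed signals was averaged over probes of a gene and fitted with limma 3.58.1 (statmod 1.5.0, R 4.3.3) over all 15 arrays, each treatment's mean against 0 and each pair of treatments against each other. Genes had to be measured on 3 of 5 arrays and to lie outside the lowest 11% of interquartile range of the treatment's signals. The methods' thresholds were an adjusted p of 0.05 with folds of 1.5, 2.5 and 1.8. Probes were fitted separately in the same way. Files were read and figures drawn with Python 3.11.15 (pandas 2.3.3, numpy 2.4.6, matplotlib 3.10.9). Symbols were updated through RefSeq; probe sequences and hg17 positions come from the scanner files. The code was tested on simulated data. Intervals are 95%; the number of arrays, 5 for each treatment, limits the precision.

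The alternatives were normexp (offset 50) with loess, background-subtracted median-centred signals, the deposited ratios, no variability filter, a filter on dim probes, the brightest probe, the slide as fixed or random block, the scan day, the replicate number as a block, each treatment alone, the methods' t-test, and each array left out. Named genes were the sirtuins, CTBP2, NAMPT, GLUD1 and HIC1; from each other list, per treatment and direction, the member of largest log2 ratio among those past the threshold and of 1 sign on all arrays; and for each sirtuin the 2 nearest profiles. The members, lists and tests were chosen with earlier results of these data known. Some genes that this rule names are not reported here.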

Additional observations from a re-analysis of the deposited data

Results flagged for a closer look

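The following results differed between treatments by the fitted contrast itself, with limma and Benjamini-Hochberg adjustment over all genes or probes, or stood apart within a treatment; the calls that single arrays, the slide or another setting ended are given above. For P4 minus shCtBP2, the log2 difference was 0.50 for SIRT1, -0.53 for SIRT5 and 0.54 for SIRT6; that of SIRT5 was -0.02 with the brightest probe. For HIPP minus shCtBP2 it was -1.27 for SIRT5, 0.52 for SIRT6 and 0.38 for SIRT7. For HIPP minus P4 it was -0.74 for SIRT5 and 0.40 for SIRT7. The SIRT5 values of HIPP minus shCtBP2 and HIPP minus P4 were -0.17 and -0.16 with the brightest probe. With normexp and loess these 2 were -0.23 and -0.12, and none of the 4 passed.

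By probe, the measured difference of SIRT5 A_23_P307955 was -2.36 for HIPP minus shCtBP2, -1.04 for P4 minus shCtBP2 and -1.33 for HIPP minus P4. Of its treated signals, 0 of 5 under HIPP and 2 of 5 under P4 cleared background, so the sizes and the order of the compounds are uncertain. SIRT3 A_24_P923684 differed by -0.56 for HIPP minus shCtBP2 and -0.53 for P4 minus shCtBP2.

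The HDAC4 log2 ratio of P4 replicate 4 was 0.61, apart from the other 4 arrays of its group by Dixon's test at the 95% level. Chance alone flags about 1 in 20 groups.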

How the results depend on the processing

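SIRT5 kept its gene-level call between HIPP and shCtBP2, and its probe A_23_P307955 its decrease under both compounds, in every array left out. Normexp, background subtraction and the deposited ratios shifted the median of all genes in P4 by -0.102, -0.129 and -0.108, and the other medians by less than 0.1. The cause of the changes below was not tested; the number of arrays limits the precision, and signals near background limit SIRT5 probe A_23_P307955.

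Counts of sirtuins past the threshold that moved by more than 1.5-fold, or to or from 0, are given below, and smaller moves are left out. Between HIPP and shCtBP2, single calls ended with background subtraction (SIRT6), the brightest probe (SIRT5) and the slide as a fixed block (SIRT7). Higher and differentially expressed in shCtBP2 were 0 with normexp and loess and 0 with the scan day as a block (0 to 1 leaving out arrays). Lower in shCtBP2 was 1 with the deposited ratios, the shCtBP2 arrays alone or the t-test. Higher in HIPP was 1 with the scan day, 1 with HIPP arrays alone and 0 by the t-test with or without its fold threshold (1 to 2 leaving out arrays); lower in HIPP was 0 with normexp, the brightest probe or the t-test over the fold; differentially expressed in HIPP was 1 at a 1.5-fold threshold. Higher in P4 was 0 with background subtraction, the scan day, P4 arrays alone and the t-test (0 to 1 leaving out arrays), and lower in P4 was 1 with the deposited ratios, no variability filter, the dim filter and the slide as fixed or random block. Differing between HIPP and shCtBP2 was 1 with normexp (1 to 3 leaving out arrays); between P4 and shCtBP2, 0 with slide or scan day (0 to 2 leaving out arrays); between HIPP and P4, 1 with normexp, background subtraction or the brightest probe and 0 with slide or scan day (1 to 2 leaving out arrays).

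The following values turned sign; of those past the threshold, SIRT5 in HIPP (-1.06) did so with the brightest probe. With normexp and loess they were -0.00617 for SIRT1 and -0.0130 for NAMPT in HIPP, 0.0774 for SIRT5 in P4, 0.0102 for SIRT5 A_23_P214812 in P4 minus shCtBP2, -0.0261 for SIRT4 and 0.0481 for SIRT3 A_24_P923684 in HIPP minus P4. With background subtraction they were -0.102 for SIRT1, -0.0139 for SIRT3 and -0.136 for NAMPT in HIPP, 0.0172 for SIRT7 and 0.0216 for A_23_P214812 in P4 minus shCtBP2, and 0.0183 for A_24_P923684 in HIPP minus P4. With the brightest probe they were 0.191 for SIRT5 and -0.119 for NAMPT in HIPP, 0.347 for SIRT5 in P4 and 0.0890 for SIRT3 in HIPP minus shCtBP2. With the slide as a fixed block they were 0.163 for SIRT7 and -0.414 for GLUD1 in shCtBP2, -0.0712 for SIRT1, -0.0256 for NAMPT and 0.0413 for SIRT3 A_23_P139265 in HIPP, -0.144 for SIRT4 and -0.205 for A_23_P214812 in P4, and 0.0430 for A_24_P923684 and 0.319 for A_23_P214812 in HIPP minus P4; as a random block, 0.0199 for A_23_P214812 in P4 minus shCtBP2. With the scan day they were 0.0844 for SIRT7, -0.113 for GLUD1 and -0.00746 for A_23_P307955 in shCtBP2, and -0.136 for SIRT1 and 0.0242 for A_23_P139265 in HIPP.

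Leaving out 1 array gave sign changes within -0.0526 to 0.0400 for SIRT7 and -0.0136 to 0.128 for A_23_P307955 in shCtBP2; -0.0361 to 0.139 for SIRT1, -0.0120 to 0.0731 for SIRT3, -0.0986 to 0.140 for NAMPT and -0.0704 to 0.0350 for A_23_P139265 in HIPP; and -0.0797 to 0.00227 for SIRT7 and -0.0872 to 0.0518 for SIRT3 A_24_P85158 in P4. In P4 minus shCtBP2 the ranges were -0.0991 to 0.00344 for SIRT2, -0.0816 to 0.0275 for SIRT7 and -0.124 to 0.0480 for A_23_P214812. In HIPP minus P4 they were -0.0184 to 0.256 for SIRT4, -0.106 to 0.0727 for SIRT6 and -0.0411 to 0.00767 for A_24_P923684.

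Replicate numbers were not taken to pair the samples across the 3 treatments: over 15 same-numbered pairs of arrays from 2 treatments, r ran from -0.0277 to 0.472 and was over 0.1 in 13, and in 6 of 15 the array correlated best with its own number. Between P4 and shCtBP2 all 5 pairs were over 0.1 (0.138 to 0.352). With the replicate block the counts of sirtuins were 1 higher in shCtBP2, 2 higher and 1 lower in HIPP, 1 higher in P4, 3 differing between HIPP and shCtBP2 and 2 between HIPP and P4, and 2 between P4 and shCtBP2 in place of 3 (SIRT5, adjusted p = 0.059). With that block CTBP2 passed in shCtBP2 (adjusted p = 0.0349) and SIRT5 A_23_P214812 in P4 (0.0398).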
